A study of Mus musculus with 8 samples.

Results

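A set of 10 genes for transcription factors of the naive and quiescent T cell state was followed: Tcf7, Lef1, Id3, Foxo1, Foxp1, Bach2, Satb1, Klf2, Klf3 and Sox4. They were chosen by name, each through its Entrez gene identifier, and with earlier results of these data known. All 10 of 10 had a row among the 11723 genes of the deposited expression table. The libraries came from bulk CD8 T cells sorted from peripheral lymph nodes of BALB/c mice at 12 days of age. 4 libraries were of WT mice and 4 were of IL-2-KO mice, in which the gene for the cytokine interleukin-2 is knocked out. The labels name no cell type or Cre line for the knockout, and do not give the allele. The WT libraries were made from 115000000, 28700000, 1300000 and 1300000 cells pooled from 5, 5, 3 and 2 mice, and the IL-2-KO libraries from 26700000, 42600000, 1100000 and 400000 cells, with no pooling given. The series' design text names spleen beside lymph node and describes the controls as WT or heterozygous, whereas each library is labelled as lymph node and WT.

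Naive T cells circulate without dividing until they meet antigen, and this quiescence is held by transcription factors rather than by mere absence of stimulation. TCF-1 (Tcf7) and LEF-1 (Lef1) establish T cell identity and maintain naive and memory cells. FOXO1 keeps up the interleukin-7 receptor and, through KLF2, the homing receptors that return cells to lymph nodes. FOXP1 restrains entry into the cell cycle, and BACH2 restrains effector differentiation, in part by repressing Prdm1. Growth signals through PI3 kinase and AKT drive FOXO1 out of the nucleus, so its protein activity can change with no change of its messenger RNA. Interleukin-2, which signals through STAT5, is a growth and differentiation signal for activated T cells, and mice without it develop autoimmunity as regulatory T cells fail.

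Values are CPM, counts set relative to library size, after the authors' scaling by trimmed mean of M-values (TMM). The libraries held 11872000 to 18399500 counts, so 1 CPM stood for 11.9 to 18.6 counts. Il2 itself was listed at 5.65 to 6.25 TMM CPM in the WT libraries and at 4.25 to 8.42 in the IL-2-KO libraries (limma, adjusted p = 0.907). The labels do not say which part of the gene was removed and the value is 1 total per gene, so it cannot serve as a check of genotype, and WT and IL-2-KO are used here as labelled. Markers of CD8 T cells summed to 4443 to 5248 TMM CPM in WT and 3936 to 4731 in IL-2-KO libraries. Markers of myeloid and dendritic cells, of which 9 of 14 were listed, summed to 437 in WT replicate 2 and 1215 in IL-2-KO replicate 3, against 37.9 to 85.6 in the other libraries. Lyz2 alone was 40.0 and 296 there, and at most 2.85 elsewhere. Of the 8 markers of CD4 and regulatory T cells, Ctla4 alone was called (higher), and the other 7 summed to 22.4 to 84.5 in WT and 22.2 to 107 in IL-2-KO libraries. Cd4 was 38.6 and 45.5 in those 2 libraries and at most 2.48 elsewhere. Markers of B cells summed to 42.2 to 65.9 in WT and 42.5 to 90.3 in IL-2-KO libraries. All 16 cell cycle genes rose in the IL-2-KO libraries, from a summed 1046 to 1178 to a summed 2172 to 2628. The part of these other signals in the results below was not tested, except where values without those 2 libraries are given.

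Across the table, 926 of 11530 tested genes (8.03%) were lower and 1285 (11.1%) were higher in the IL-2-KO libraries by limma, at p under 0.05 after Benjamini-Hochberg adjustment. Of the 10 factors, 3 were lower, none was higher and 7 did not pass. Lef1 fell to 62.2% of its WT level, Foxp1 to 66.2% and Bach2 to 80.5%. Tcf7 and Satb1, the most abundant of the factors, stood at 102.5% and 102.3% of WT in the same fit. The median log2 difference of the 10 factors was -0.30, beside -0.01 for all genes tested. As the factors were chosen with earlier results of these data known, this comparison is a description. With no adjustment for the number of genes, 6 factors passed p under 0.05, all of them lower, where 1874 genes (16.3%) were lower at that level and 33.3% passed it in either direction. In bulk libraries, fewer cells that express a gene and less RNA per cell cannot be told apart.

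**Figure D1:**
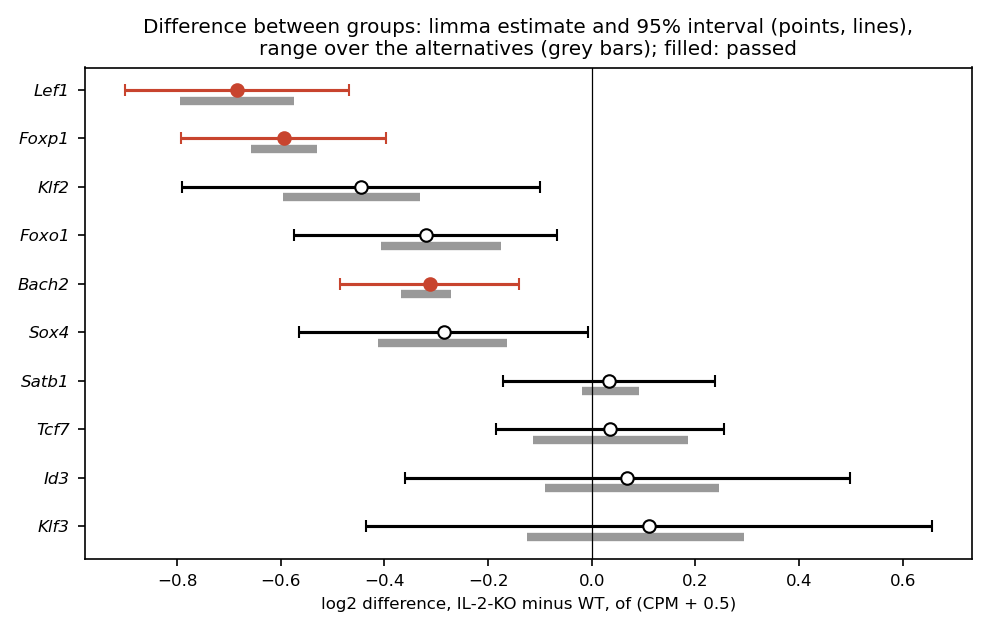
Log2 difference of each factor, IL-2-KO minus WT, from limma on 8 libraries (points, filled red where the adjusted test passed) with unadjusted 95% confidence intervals, and its range over the 21 alternatives (grey bars). The intervals of Lef1 (-0.90 to -0.47), Foxp1 (-0.79 to -0.40) and Bach2 (-0.49 to -0.14) lie below 0, as do those of Klf2 (-0.79 to -0.10), Foxo1 (-0.57 to -0.07) and Sox4 (-0.56 to -0.0062), which did not pass after adjustment, and those of Tcf7, Satb1, Id3 and Klf3 span it.

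The 3 factors that fell are shown by the 250 bases before their most upstream start site in the RefSeq promoter table (GRCm38.p6), so that the windows can be read beside the factors' own binding motifs. Lef1 is on the plus strand at chr3:131110047-131110296, Foxp1 on the minus strand at chr6:99520994-99521243 and Bach2 on the plus strand at chr4:32417185-32417434. Capitals mark matches, on either strand, to CACCC (bound by KLF factors), CTTTGA (TCF-1 and LEF-1), GTAAACA (forkhead factors), TGANTCA (BACH2 and AP-1) and TTCNNNGAA (STAT5). No motif match overlapped another in these 3 windows.
Lef1: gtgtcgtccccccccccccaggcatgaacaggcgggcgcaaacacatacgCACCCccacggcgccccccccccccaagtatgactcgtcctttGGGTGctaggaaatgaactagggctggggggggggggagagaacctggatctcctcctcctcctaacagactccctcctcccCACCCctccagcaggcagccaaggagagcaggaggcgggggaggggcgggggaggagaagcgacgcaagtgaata
Foxp1: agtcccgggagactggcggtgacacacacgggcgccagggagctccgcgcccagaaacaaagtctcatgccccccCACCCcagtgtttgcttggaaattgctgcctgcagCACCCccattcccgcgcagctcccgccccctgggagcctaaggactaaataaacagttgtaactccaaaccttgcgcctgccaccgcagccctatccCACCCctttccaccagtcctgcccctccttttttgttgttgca
Bach2: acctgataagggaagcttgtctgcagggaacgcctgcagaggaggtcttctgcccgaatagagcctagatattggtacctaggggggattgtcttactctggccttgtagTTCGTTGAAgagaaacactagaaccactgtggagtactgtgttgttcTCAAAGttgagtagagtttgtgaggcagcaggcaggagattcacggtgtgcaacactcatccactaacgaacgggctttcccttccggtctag
The Lef1 and Foxp1 windows each hold 3 KLF matches and no other match. The Bach2 window holds a STAT5 match, TTCGTTGAA, starting 140 bases before the start site, and a TCF/LEF match on the opposite strand, TCAAAG, starting 93 bases before it. Over 9350 promoter windows of the same make-up, extended to 50 bases past the start, the STAT5 motif was found in 6.91%, the TCF/LEF motif in 11.7% and the KLF motif in 62.4%. The forkhead motif was found in 2.56% and the BACH2 and AP-1 motif in 4.62%, and in none of the windows of the 10 factors. A KLF match stood in 7 of the 10, and Bach2 was the 1 factor with a STAT5 or a TCF/LEF match. The Foxp1 and Bach2 start sites lie 1753 and 179022 bases inside the annotated genes, and the table's single value per gene does not show which start site was used in these cells.

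Compared per kilobase of the longest annotated transcript, the factors spanned a wide range in WT cells. Tcf7 stood highest at 494 TMM CPM per kilobase (456 to 524), the 99.6th percentile of tested genes. Satb1 at 165 (149 to 176) and Klf2 at 153 (133 to 186) overlapped each other, with Lef1 next at 104 (90.8 to 121). Foxp1 followed at 53.2 (47.8 to 57.9), then Id3 at 41.8 (32.8 to 47.6) and Foxo1 at 36.1 (32.8 to 39.4), whose ranges overlapped. Klf3 at 19.1 (15.9 to 21.2) and Bach2 at 16.6 (15.2 to 17.6) also overlapped. Sox4 was lowest at 2.69 (2.41 to 2.94), the 20.1st percentile. In IL-2-KO cells Tcf7 was again highest at 508 and Sox4 lowest at 2.19, while Lef1 stood at 64.8 and Foxp1 at 35.1.

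**Figure D2:**
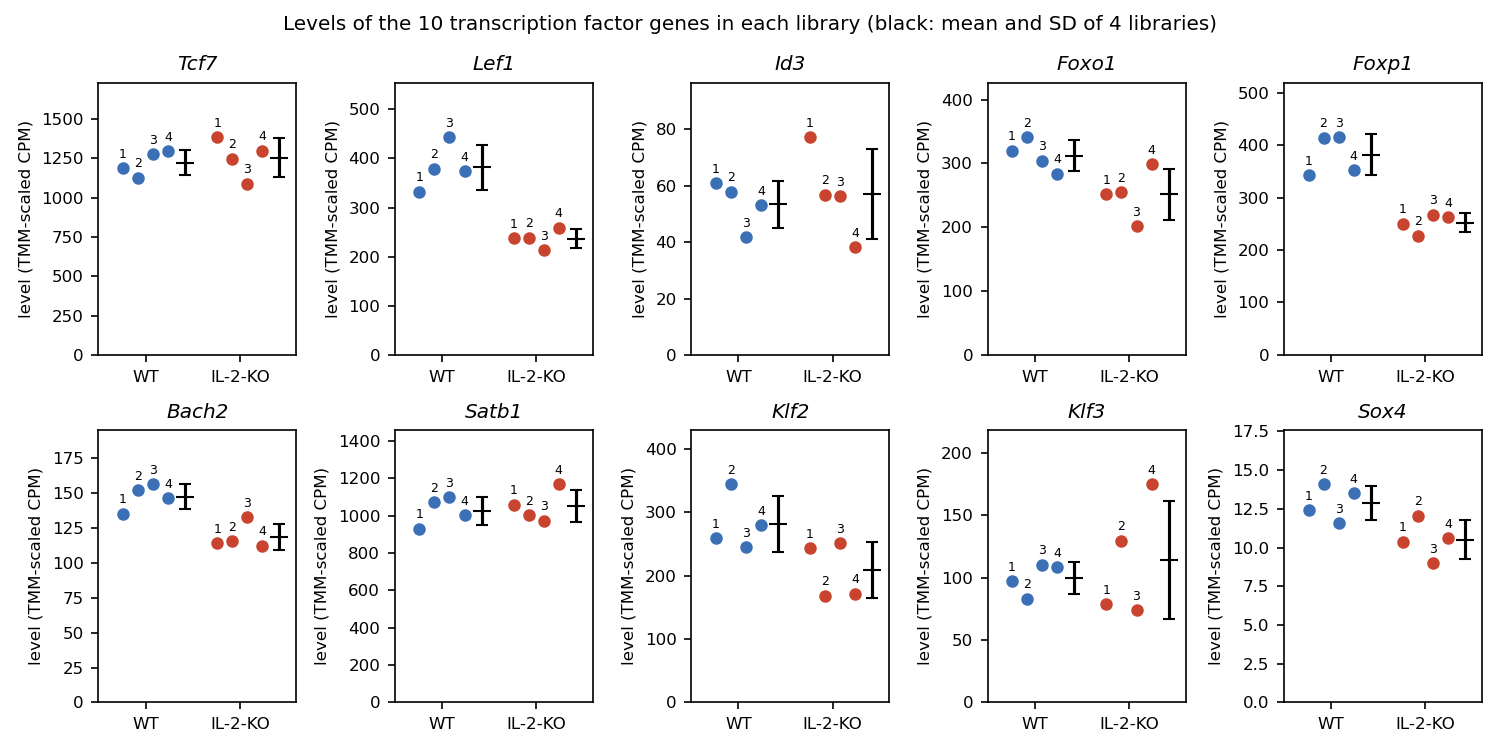
Level of each factor (TMM CPM, linear axis from 0 with its own scale in each panel) in 4 WT libraries (blue) and 4 IL-2-KO libraries (red), numbered by replicate, with the mean and SD of each group in black. The groups do not overlap for Lef1, Foxp1 and Bach2; Tcf7 (1088 to 1386) and Satb1 (932 to 1168) stay within a narrow range in both groups.

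Tcf7 (chromosome 11, 52246527 to 52283383, GRCm38.p6 as for all positions here) encodes TCF-1, the partner of LEF-1 in T cells. It measured 1186, 1128, 1278 and 1295 TMM CPM in the WT libraries and 1386, 1249, 1088 and 1299 in the IL-2-KO libraries. The IL-2-KO values lie on both sides of the WT range, with the lowest and the highest of all 8 among them. By limma, IL-2-KO minus WT came to 0.04 in log2 units (95% confidence interval -0.18 to 0.26) and did not pass (adjusted p = 0.834). The lower bound of this interval lies above the point estimates for Lef1 and Foxp1, which have intervals of their own. Tcf7 was not tested against Foxp1, and its ratio with Lef1, tested below, did not pass after adjustment.

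Lef1 (chromosome 3, 131110297 to 131224357) behaved otherwise. Its WT libraries measured 332, 379, 444 and 374 TMM CPM and its IL-2-KO libraries 238, 238, 213 and 259. Every IL-2-KO value was below every WT value, as was so for 11.2% of all tested genes, while 12.9% had every IL-2-KO value above every WT value. The mean went from 382 ± 46.1 to 237 ± 18.8 (SD, n = 4 and 4), a log2 difference of -0.68 with a standard error of 0.10 (limma, Benjamini-Hochberg adjusted p = 9.98e-04). Leaving out any 1 library kept the difference between -0.75 and -0.61, with limma adjusted p of 0.00132 to 0.00464.

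Because TCF-1 and LEF-1 share partners and binding sites, their ratio within a library was also compared. The log2 ratio of Lef1 to Tcf7 was -1.84, -1.57, -1.52 and -1.79 in WT libraries and -2.54, -2.39, -2.35 and -2.33 in IL-2-KO libraries. The groups did not overlap, and the mean fell by 0.721. An exact two-sided permutation test gave p = 0.0286, the smallest that 4 against 4 libraries allow, and 0.0857 after adjustment over the 3 ratios examined. The ratio therefore did not pass once adjusted. Even this smallest p could pass over 3 ratios only if another ratio reached it too.

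**Figure D3:**
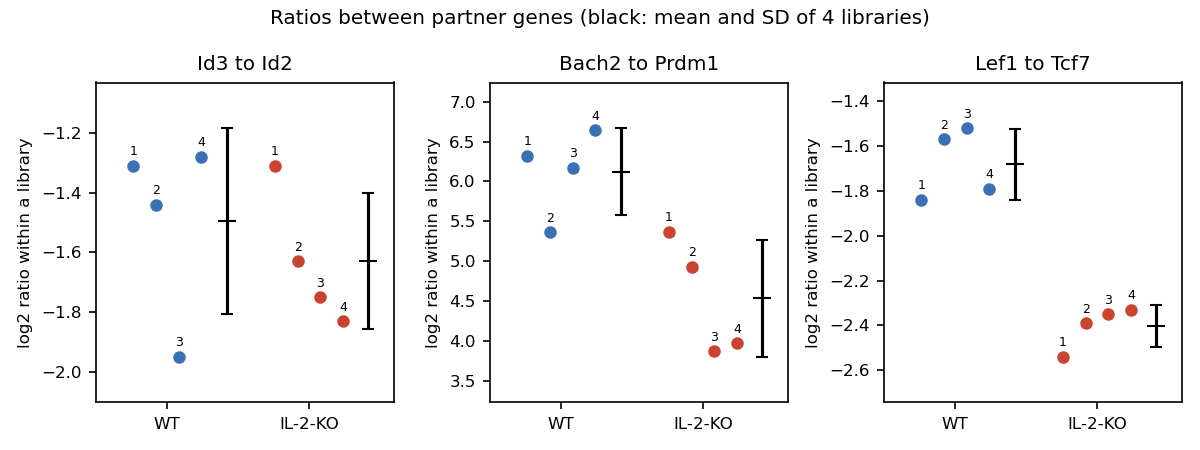
Log2 ratio of Lef1 to Tcf7, Bach2 to Prdm1 and Id3 to Id2 within each library, with 4 WT libraries (blue) and 4 IL-2-KO libraries (red) numbered by replicate and the mean and SD of each group in black. The Lef1 to Tcf7 ratios do not overlap between groups (-1.84 to -1.52 against -2.54 to -2.33), and the other 2 ratios do.

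TCF-1 and LEF-1 act with beta-catenin as activators and with Groucho (TLE) proteins as repressors. Of 18 genes for such partners and for the beta-catenin pathway, 4 fell, 1 rose and 13 did not pass. The shares of all genes tested were 8.03% lower and 11.1% higher. Tle1, a Groucho co-repressor, fell from 9.34 ± 2.13 to 4.33 ± 0.57 TMM CPM (log2 difference -1.01, limma adjusted p = 0.0032). Ctnnbip1, whose product blocks beta-catenin from binding TCF factors, rose from 2.86 ± 0.41 to 6.55 ± 1.00 (log2 difference 1.06, limma adjusted p = 0.00176). For each of these 2 genes the groups did not overlap. Nlk, a kinase that acts on TCF/LEF proteins, fell by 0.29 on the log2 scale (limma adjusted p = 0.0167, but 0.0645 without WT replicate 3).

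Bcl9, a beta-catenin co-activator, fell by 0.55 (limma adjusted p = 0.0342), and failed without WT replicates 1, 3 or 4 or IL-2-KO replicate 4 (adjusted p 0.0555 to 0.0981). Apc, of the complex that degrades beta-catenin, fell by 0.25 (limma adjusted p = 0.0489) and passed only when either WT replicate 2 or IL-2-KO replicate 4 was left out, with adjusted p of 0.0566 to 0.151 in the other 6 fits. Axin2, a common readout of beta-catenin and TCF activity, measured 38.2 ± 3.68 and 34.4 ± 0.31 and did not pass (limma adjusted p = 0.289). The median log2 difference of the 18 genes was -0.13.

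Foxo1 (chromosome 3, 52268337 to 52350109) encodes the forkhead factor that links growth signals to quiescence and homing. It measured 320, 341, 305 and 284 TMM CPM in WT and 252, 255, 202 and 299 in IL-2-KO libraries. IL-2-KO replicates 1 to 3 lay below all WT values, and replicate 4 lay inside the WT range. The log2 difference was -0.32 (95% confidence interval -0.57 to -0.07), with an unadjusted p of 0.0182 in limma and an adjusted p of 0.0767, so Foxo1 did not pass. Without IL-2-KO replicate 4 it did (log2 difference -0.41, limma adjusted p = 0.0236). When WT replicate 2 was left out together with IL-2-KO replicate 3, the difference was -0.17 (limma adjusted p = 0.221).

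Foxp1 (chromosome 6, 98925342 to 99522746) encodes a forkhead repressor needed for naive T cells to stay quiescent. It measured 343, 415, 416 and 353 TMM CPM in WT and 251, 228, 268 and 263 in IL-2-KO libraries. All IL-2-KO values were below all WT values. The mean went from 382 ± 39.0 to 252 ± 17.7, a log2 difference of -0.59 with a standard error of 0.09 (limma, Benjamini-Hochberg adjusted p = 0.00139). Leaving out any 1 library kept it between -0.64 and -0.55, with adjusted p of 0.00234 to 0.007.

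Related family members did not pass. Of 36 paralogs of the 10 factors, 21 were listed and 20 were tested. None passed in limma, where 19.2% of all genes tested did. An unadjusted p under 0.05 was found for 4 of them, and for 33.3% of all genes tested. Foxo3 measured 27.6 ± 1.83 and 20.8 ± 5.88 TMM CPM in WT and IL-2-KO libraries, and Foxo4 measured 70.2 ± 6.50 and 57.4 ± 7.88. Klf13 measured 398 ± 10.8 and 324 ± 53.2, with no overlap between groups (limma adjusted p = 0.0779). Foxp3, the factor of regulatory T cells, was low throughout at 4.16 ± 0.27 and 2.98 ± 0.39, also with no overlap (limma adjusted p = 0.075).

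The known targets of FOXO1 and KLF2 did not move as 1 group. Of 19 fixed genes, 5 fell, 2 rose and 12 did not pass, where 8.03% of all genes tested fell and 11.1% rose. The median log2 difference of the 19 was -0.27. S1pr1, the sphingosine phosphate receptor for exit from lymph nodes and a KLF2 target, fell from 505 ± 36.3 to 301 ± 39.5 TMM CPM (log2 difference -0.76, limma adjusted p = 6.31e-04). Sesn1, a stress-response inhibitor of growth signalling, measured 143, 183, 178 and 171 in WT and 103, 106, 87.8 and 107 in IL-2-KO libraries. This gave a log2 difference of -0.74 (limma adjusted p = 6.08e-04). Cdkn1b, the cell cycle inhibitor p27, fell from 230 ± 20.9 to 162 ± 15.5 (log2 difference -0.51, limma adjusted p = 0.00385). These 3 calls held whichever library was left out.

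Il7r and Ccr7, receptors of the naive state among the same targets, did not pass. Il7r, the interleukin-7 receptor, measured 699 ± 191 and 638 ± 284 TMM CPM in WT and IL-2-KO libraries (limma adjusted p = 0.709). Ccr7, the chemokine receptor for lymph node entry, measured 355 ± 48.8 and 292 ± 24.0 (limma adjusted p = 0.112). S1pr1 thus fell where Il7r and Ccr7 had no call, and the differences between these genes were not tested.

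The 4 other calls among the targets did not hold in every fit that left out 1 library. Bcl6, which encodes a transcriptional repressor needed for germinal centre and memory cells, rose by 0.65 on the log2 scale (limma adjusted p = 0.0152, and 0.0515 without WT replicate 4). Txnip, an inhibitor of glucose uptake, fell by 0.65 (limma adjusted p = 0.0212) but failed without WT replicates 1 or 3 or IL-2-KO replicates 1, 2 or 3 (adjusted p 0.0501 to 0.0726). Pik3ip1, an inhibitor of PI3 kinase, fell by 0.52 (limma adjusted p = 0.0421) and passed only when either WT replicate 1 or IL-2-KO replicate 4 was left out, with adjusted p of 0.0704 to 0.129 in the other 6 fits. Gabarapl1, an autophagy gene, rose by 0.62 (limma adjusted p = 0.0425) and passed only when either WT replicate 2 or IL-2-KO replicate 4 was left out, with adjusted p of 0.0536 to 0.123 in the other 6 fits.

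Among 16 genes of the PI3 kinase, AKT and mTOR pathway that acts on FOXO1 protein, 1 rose, 3 fell and 12 did not pass. Over all genes tested, 11.1% rose and 8.03% fell. Akt1 rose from 135 ± 12.8 to 174 ± 11.3 TMM CPM (log2 difference 0.37, limma adjusted p = 0.0132), with no overlap. Rictor, a subunit of the mTOR complex that activates AKT, fell from 376 ± 18.9 to 278 ± 42.2 (log2 difference -0.44, limma adjusted p = 0.0154, and 0.055 without WT replicate 3). Pik3r1, the regulatory subunit of PI3 kinase, fell by 0.39 (limma adjusted p = 0.0281) and passed only without IL-2-KO replicate 4, with adjusted p of 0.05 to 0.08 in the other 7 fits. These are RNA levels, and phosphorylation of FOXO1 was not measured.

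Bach2 (chromosome 4, 32238413 to 32586109) encodes a repressor that competes with AP-1 factors. It measured 135, 152, 156 and 146 TMM CPM in WT and 114, 116, 133 and 112 in IL-2-KO libraries. All IL-2-KO values were below all WT values, with the gap narrow between IL-2-KO replicate 3 at 133 and WT replicate 1 at 135. The mean went from 147 ± 9.15 to 119 ± 9.50, a log2 difference of -0.31 with a standard error of 0.08 (limma, Benjamini-Hochberg adjusted p = 0.0195). The call was lost without WT replicate 3 (adjusted p = 0.0722), WT replicate 4 (0.0564) or IL-2-KO replicate 2 (0.0502), and after removal of each library's trend with gene length and GC content (log2 difference -0.27, limma adjusted p = 0.1). When the libraries with myeloid markers (WT replicate 2, IL-2-KO replicate 3) were left out, the difference was -0.35 (limma adjusted p = 0.0161), in a fit that called 7.34% of all genes lower.

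Prdm1, the target that BACH2 represses, encodes the effector factor BLIMP-1. It measured 1.20, 3.20, 1.67 and 0.965 TMM CPM in WT and 2.28, 3.32, 8.60 and 6.71 in IL-2-KO libraries. The groups overlapped through WT replicate 2, and the log2 difference of 1.28 did not pass (limma adjusted p = 0.0514). With those 2 libraries left out it was 1.27 and passed (limma adjusted p = 0.0334). It was 0.38 among the 4 libraries of over 2000000 cells (limma adjusted p = 0.79) and 2.18 among the 4 of fewer (0.0282). The log2 ratio of Bach2 to Prdm1 went from 6.13 ± 0.54 to 4.53 ± 0.73, with overlap (exact two-sided permutation p = 0.0571, adjusted 0.0857 over 3 ratios). The mean ratio differed by -0.70 among the larger samples and by -2.49 among the smaller. Of the 7 genes for BACH2 partners and its target Prdm1, none passed in limma, where 19.2% of all genes tested did. Prdm1 was the 1 gene with an unadjusted limma p under 0.05, where 33.3% of all genes tested had one. The small MAF partner Mafk measured 69.0 ± 15.3 and 67.7 ± 13.6.

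Id3 (chromosome 4, 136143822 to 136145392) encodes an inhibitor of E protein transcription factors that marks naive and memory CD8 T cells. It measured 60.8, 57.9, 41.9 and 53.1 TMM CPM in WT and 77.3, 56.9, 56.2 and 38.2 in IL-2-KO libraries. The IL-2-KO libraries held both the highest and the lowest value. The log2 difference was 0.07 (95% confidence interval -0.36 to 0.50) and did not pass (limma adjusted p = 0.84). Id2, the related inhibitor of effector cells, measured 151 ± 14.9 and 175 ± 25.6 (log2 difference 0.20, limma adjusted p = 0.254). The log2 ratio of Id3 to Id2 was -1.49 ± 0.31 in WT and -1.63 ± 0.23 in IL-2-KO libraries (exact two-sided permutation p = 0.514).

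The E proteins that ID2 and ID3 bind did not pass either. Tcf12 measured 278 ± 3.58 and 297 ± 37.7 TMM CPM, and Tcf3 measured 159 ± 3.20 and 164 ± 14.5. None of the 3 E protein genes had an unadjusted p under 0.05 in limma, where 33.3% of all genes tested did. Tcf4 was low except in the libraries with myeloid markers, at 15.0 in WT replicate 2 and 17.9 in IL-2-KO replicate 3, against 1.73 to 3.07 in the others.

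Satb1 (chromosome 17, 51736187 to 51833290) encodes a chromatin organiser of T cell genes. It measured 932, 1074, 1100.5 and 1003 TMM CPM in WT and 1059.8, 1004, 973 and 1168 in IL-2-KO libraries. The groups overlapped almost fully. The log2 difference was 0.03 (95% confidence interval -0.17 to 0.24) and did not pass (limma adjusted p = 0.838).

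Sox4 (chromosome 13, 28948919 to 28953699), a SOX family factor of lymphocyte development, was the least abundant factor. It measured 12.4, 14.1, 11.6 and 13.5 TMM CPM in WT and 10.4, 12.1, 8.98 and 10.6 in IL-2-KO libraries. IL-2-KO replicates 1, 3 and 4 lay below all WT values and replicate 2 lay inside their range. The log2 difference of -0.29 had an unadjusted p of 0.046 in limma and did not pass (adjusted p = 0.142).

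Klf2 (chromosome 8, 72319062 to 72321654) encodes the factor that keeps S1pr1 expressed in naive cells. It measured 259, 344, 245 and 279 TMM CPM in WT and 243, 169, 251 and 171 in IL-2-KO libraries. IL-2-KO replicates 2 and 4 lay well below the WT range, replicate 1 just below it and replicate 3 within it. On the log2 scale of the fit, Klf2 stood at 73.5% of WT. This log2 difference of -0.44 (95% confidence interval -0.79 to -0.10) did not pass (limma adjusted p = 0.0725). Klf2 did pass without IL-2-KO replicate 3 (log2 difference -0.54, limma adjusted p = 0.039), with array weights (-0.59, adjusted p = 7.41e-04) and after removal of the length and GC trends (-0.47, adjusted p = 0.00443). The table as a whole then had 18.4% and 10.7% of genes called lower under the latter 2 settings.

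Klf3 (chromosome 5, 64803521 to 64832901), a repressor of the same family, was the most variable factor. It measured 97.1, 83.3, 110 and 108 TMM CPM in WT and 78.5, 130, 73.8 and 175 in IL-2-KO libraries. IL-2-KO replicates 1 and 3 lay below the WT range and replicates 2 and 4 above it. The log2 difference was 0.11 (95% confidence interval -0.43 to 0.66) and did not pass (limma adjusted p = 0.792).

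Klf2 and Klf3 varied in opposite ways among the IL-2-KO libraries. Measured from the group mean on the log2 scale, Klf3 stood at -0.45, 0.28, -0.53 and 0.70 in replicates 1 to 4, and Klf2 at 0.24, -0.28, 0.29 and -0.26. The same split of replicates 1 and 3 from 2 and 4 was seen over all genes. The correlation of a gene's deviation with its GC content, across 11324 genes that are not independent, was 0.359 and 0.112 in replicates 1 and 3 and -0.261 and -0.273 in replicates 2 and 4. With log transcript length it was -0.314 and -0.23 against 0.325 and 0.329. The transcript of Klf2 is the most GC-rich of the 10 at 61.6% and 1.85 kilobases long, and that of Klf3 has 45.7% GC and 5.22 kilobases. Those of Satb1 (44.8%, 6.24 kilobases) and Foxp1 (44.9%, 7.18 kilobases) are lower in GC and longer than that of Klf3. In IL-2-KO replicates 1 to 4, Satb1 stood at 0.015, -0.062, -0.108 and 0.155, and Foxp1 at -0.0056, -0.144, 0.088 and 0.061. Id3 (55.6%, 1.28 kilobases) stood at 0.475, 0.036, 0.020 and -0.531. The part of this library-wide trend in the spread of Klf2 and Klf3 was not tested.

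**Figure D4:**
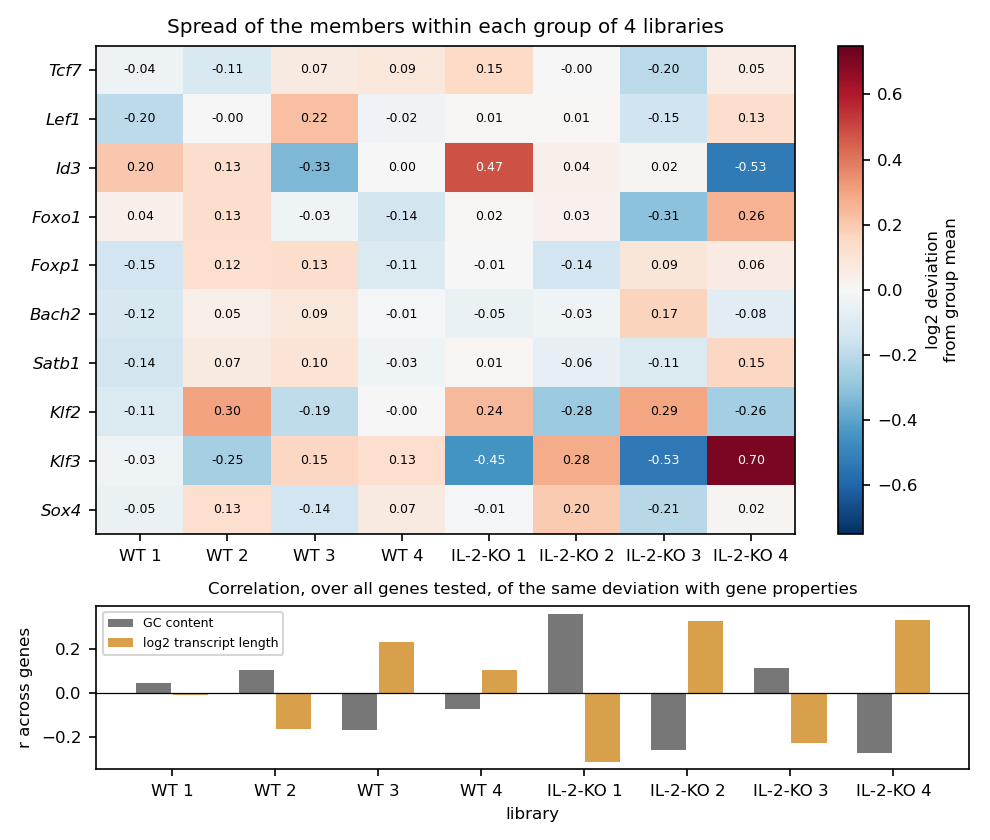
Deviation of each factor from its group mean (log2) in every library, as a grid of factors by libraries, above the correlation r of all genes' deviations with GC content (grey bars) and log2 transcript length (orange bars) in each library. Klf3 runs from -0.53 to 0.70 among IL-2-KO libraries, with Klf2 of opposite sign in each, while Satb1 stays within -0.11 to 0.155.

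Over the 8 libraries, log2 values of Lef1, Foxp1 and Bach2 ran together and include the difference between the groups. Pearson's r was 0.936 for Lef1 with Foxp1, 0.929 for Foxp1 with Bach2 and 0.831 for Lef1 with Bach2. It was 0.0329 for Lef1 with Tcf7 and -0.733 for Klf2 with Klf3. These r values are descriptions over 8 libraries that share their group, depth and composition. Measured from the group mean, Lef1 and Bach2 had opposite signs in each IL-2-KO library. In replicates 1 to 4, Lef1 stood at 0.0086, 0.012, -0.151 and 0.13, and Bach2 at -0.053, -0.035, 0.165 and -0.078. In WT replicates 1 to 4, Lef1 stood at -0.195, -0.0038, 0.223 and -0.0245, and Bach2 at -0.123, 0.0477, 0.0851 and -0.01.

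Among 9068 candidate genes with a mean of at least 10 TMM CPM, the gene most like Foxp1 was Smad7, an inhibitor of TGF-beta signalling, at r = 0.995 over 8 libraries. Smad7 went from 177 to 104 TMM CPM (log2 difference -0.75, limma adjusted p = 6.48e-04). The gene most like Lef1 was Otulinl (r = 0.981), which was also lower (log2 difference -0.35, limma adjusted p = 0.00524). Traf3ip2 was most like Bach2 (r = 0.982, log2 difference -0.25, limma adjusted p = 0.0462), and passed only when IL-2-KO replicate 3 was left out, with adjusted p of 0.0688 to 0.145 in the other 7 fits. Akr1c13 was most like Sox4 (r = 0.968, log2 difference -0.52, limma adjusted p = 0.0285), with its call lost without WT replicates 1, 2 or 4 or IL-2-KO replicates 3 or 4 (adjusted p 0.0506 to 0.084).

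For the other 6 factors the gene most like each did not pass. These were Hs6st1 for Tcf7 (r = 0.96), Ropn1l for Id3 (r = 0.982), Qtrt2 for Foxo1 (r = 0.97) and Dnajb6 for Satb1 (r = 0.985). Tagln was most like Klf2 (r = 0.992) and Atp6v0a2 most like Klf3 (r = 0.992). Each is the highest of 9068 correlations over 8 values and is given as a description.

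Among other regulators of quiescence, calls went in both directions. Of 22 fixed genes, 20 were listed and 19 tested. Of these, 3 rose, 2 fell and 14 did not pass, where 11.1% of all genes tested rose and 8.03% fell. The median log2 difference was -0.03. Cdkn2c, the cell cycle inhibitor p18, rose from 6.53 ± 0.43 to 15.0 ± 3.14 TMM CPM (log2 difference 1.13, limma adjusted p = 6.98e-04), in the same direction as the cell cycle genes. Rbl1, which encodes the pocket protein p107, rose by 0.41 (limma adjusted p = 0.0166, and 0.0509 without WT replicate 1). Tsc1, an inhibitor of mTOR, fell by 0.28 (limma adjusted p = 0.0281), and failed without WT replicates 1, 3 or 4 or IL-2-KO replicates 1 or 3 (adjusted p 0.0608 to 0.0968).

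Peli1, an E3 ligase that restrains T cell activation, fell by 0.38 (limma adjusted p = 0.0306) and passed only when either WT replicate 1 or IL-2-KO replicate 4 was left out, with adjusted p of 0.0518 to 0.0944 in the other 6 fits. Slfn2, required for quiescence, rose by 0.31 (limma adjusted p = 0.0312), and failed without WT replicates 1, 3 or 4 or IL-2-KO replicates 1 or 2 (adjusted p 0.0717 to 0.0989).

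Transcription factors of activated and effector cells, set beside the naive factors, gave 8 of 18 higher, none lower and 10 that did not pass. Their median log2 difference was 0.91. Of all genes tested, 11.1% were higher. Irf4, induced by antigen receptor signals, went from 24.1 ± 2.83 to 70.2 ± 6.64 TMM CPM (log2 difference 1.53, limma adjusted p = 5.41e-05). Ikzf2 rose by 0.91 (limma adjusted p = 4.47e-04), Eomes by 1.13 (limma adjusted p = 0.00184) and Tbx21, which encodes T-bet, by 1.27 (limma adjusted p = 0.00285). Eomes is also among the markers of natural killer cells, of which 5 of 7 listed genes rose. Natural killer markers summed to 402 to 504 in WT and 760.5 to 1058 in IL-2-KO libraries.

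**Figure D5:**
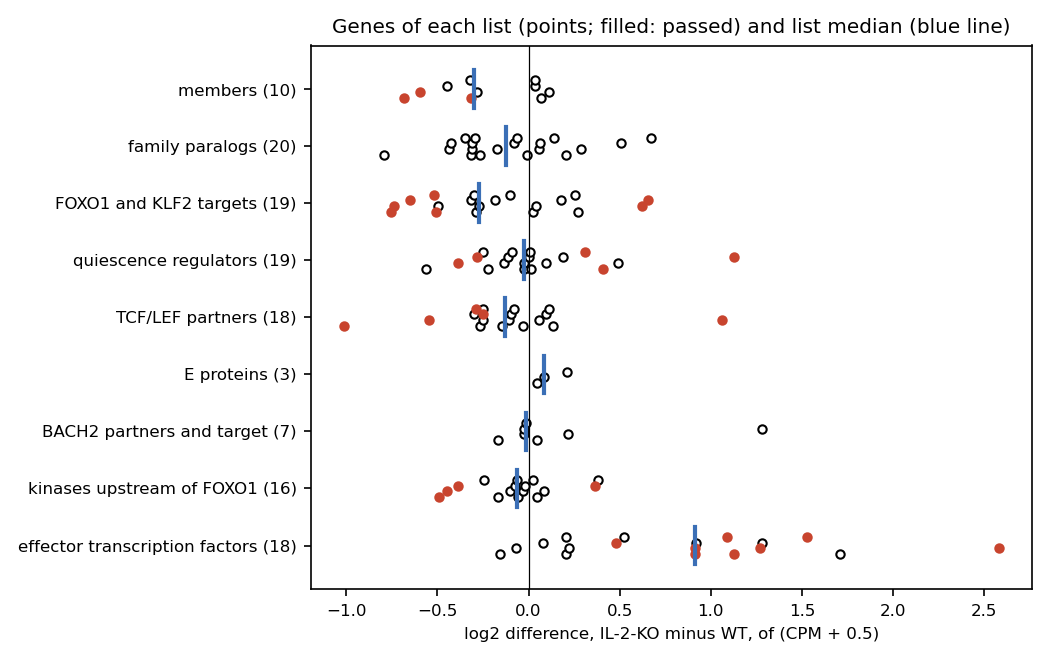
Log2 difference, IL-2-KO minus WT, of every tested gene in each fixed list, with the number of genes in brackets, the list median as a blue line and genes that passed the adjusted test filled red. The 10 factors have a median of -0.30 and the effector factors of 0.91, against -0.01 for all genes. The lists were chosen with earlier results of these data known.

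The libraries fall into those from more and those from fewer than 2000000 cells, with 2 of each genotype in both. Lef1 differed by -0.57 among the larger samples and by -0.79 among the smaller, Foxp1 by -0.66 and -0.53, and Bach2 by -0.32 and -0.31. With 2 libraries against 2, none of the 10 factors passed in limma in either set, where 0.538% and 0.746% of all genes were called lower. The adjusted p of Lef1 was 0.0744 and 0.0587, that of Foxp1 0.0591 and 0.0927, and that of Bach2 0.357 and 0.252. At an unadjusted p under 0.05, 5 factors passed among the larger samples, where 13.7% of all genes did, and 2 among the smaller, where 20.8% did. Each of these 3 genes was lower in both sets, and few genes of the whole table were called in either.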

How the data were processed

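The authors deposited 1 table of TMM CPM per gene for 8 libraries. Its deposited values are entered as signal, since the columns sum to 988292 to 1022953 rather than to 1 fixed total, as CPM would; the planned test for CPM was kept. Counts were made with featureCounts on GRCm38 (mm10) and scaled with limma 3.34.9 in R 3.4.3, per the submitters' processing notes; the aligner and strand setting are not given in the sources used here, so reads of antisense partners may not be separated. Libraries were total RNA from a stranded kit, per the labels' protocols. Steps in the values gave library totals of 11872000 to 18399500 counts; only 54.6% to 65.0% of values under 20 CPM were whole reads (tolerance 0.001 read) and all were hundredths of a read (tolerance 0.05), so no count test was run.

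Genes with at least 1 CPM in at least 4 libraries (11530 of 11723) were tested on log2(value + 0.5) with limma 3.58.1 in R 4.3.3 (empirical Bayes with trend, group as the single term), with Benjamini-Hochberg adjustment over all of them and a threshold of 0.05; fold changes are on that scale and understate those of low genes. The test was tried on simulated data that held no trend with length or GC content. That trial does not show how the test behaves where such trends are present. Entrez identifiers matched a symbol for 11651 genes and 72 had none. Ratios used exact permutation over 70 assignments. The members and lists were chosen with earlier results of these data known. Named genes were all members, Id2 and Prdm1, up to 4 genes of each list with the smallest adjusted p and the gene most correlated with each member; other genes called in a list, Axin2, Il7r, Ccr7 and Mafk were added after their values were seen; some list genes are not reported here. No 2 libraries of the same group agreed within sampling noise (chi-square per gene at least 5.0). P-values measure the spread between these libraries. Sets of same-numbered libraries did not deviate together in a way that pairs them. Alternatives covered the pseudocount, filter, scaling, replicate block, cell number, array weights, length and GC trends and left-out libraries; use of only the smaller samples was added after seeing the data.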

Additional observations from a re-analysis of the deposited data

Results flagged for a closer look

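Among 84 groups of 4 libraries (42 named genes in each genotype), 4 had 1 library far from the other 3, as Dixon's test at 95% would flag in about 1 group in 20 by chance. Bach2 was 133 TMM CPM in IL-2-KO replicate 3, while the remaining IL-2-KO libraries held 112 to 116, and is the value nearest to the WT range. Tcf4 was 15.0 in WT replicate 2 against 1.81 to 2.25, and 17.9 in IL-2-KO replicate 3 against 1.73 to 3.07. Ncor1, a co-repressor of BACH2, was 385 in WT replicate 2 against 510 to 521 in the other WT libraries. Each of these values came from 1 of the 2 libraries with high myeloid markers, and the part of those cells in them was not tested.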

How the results depend on the processing

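Lef1 and Foxp1 were lower in all 21 alternatives and passed in 19, and Bach2 was lower in all 21 and passed in 15. Neither Lef1 nor Foxp1 passed in the fits of 4 libraries, where 4 (larger samples) and 7 (smaller) of 36 called genes did; 30 passed when the pair of libraries with myeloid markers was left out, with Akr1c13, Apc, Peli1, Pik3ip1, Pik3r1 and Rbl1 lost. The 2211 genes passing became 1397 with the replicate block, 4359 with array weights, 384 without and 441 with only the 4 libraries of under 2000000 cells, and 1285 to 2205 when 1 library was left out (1285 without WT replicate 3, 1351 without WT replicate 4). The 3 factors passing stayed 3 with the replicate block, became 0 in each fit of 4 libraries (5 and 2 by unadjusted p in limma, where 13.7% and 20.8% of all genes passed), and ranged from 2 to 4 when 1 library was left out. The correlation of same-numbered libraries ran from -0.53 to 0.394, and 2 of 8 libraries correlated best with their own number; with the replicate block 11 of those 36 genes lost their call. The log2 ratios of Bach2 to Prdm1 (-1.19) and Lef1 to Tcf7 (-0.717) passed at a pseudocount of 2 (exact permutation, adjusted p = 0.0429 each). They also passed without IL-2-KO replicate 1 (-1.87 and -0.674). With 1 library left out, they ranged from -1.87 to -1.37 and from -0.772 to -0.669. In the main test Lef1 to Tcf7 was -0.721, and its unadjusted p was already the smallest possible. Its adjusted p fell in these 2 settings because the unadjusted p of Bach2 to Prdm1 fell, as the 3 ratios are adjusted together.

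Direction was followed for 63 genes, and none of the 36 called among them changed direction. Those that did change were all genes that had not passed. Tcf7 was -0.027 with quantile normalization, -0.00012 with array weights and -0.11 in the smaller samples; Ropn1l was -0.083 with quantile normalization and -0.047 with the length and GC trends removed; Tcf3 was -0.027 with array weights. Tcf4 was -0.93 in the larger samples, and Id3 -0.023, Hs6st1 -0.11 and Hdac3 0.0057 in the smaller. With 1 library left out, the ranges were -0.013 to 0.10 for Tcf7, -0.0902 to 0.24 for Id3, -0.019 to 0.069 for Satb1, -0.12 to 0.29 for Klf3, -0.00395 to 0.094 for Tcf3, -0.45 to 0.85 for Tcf4, -0.065 to 0.027 for Hdac3, -0.0064 to 0.075 for Ropn1l, -0.45 to 0.037 for Il7r and -0.039 to 0.21 for Atp6v0a2. The cause was not tested. Precision is limited by 4 libraries a group.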
